A study of Rattus norvegicus with 2 samples.

Results

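The proteasome is the barrel-shaped protease that degrades proteins tagged with ubiquitin. The genes of its subunits and activators were compared between the duodenum of an immobilized rat and that of a control rat. Members were all probe sets of the rat U34A array whose annotated symbol begins with Psm, a letter from a to g and a digit. This rule found 54 of the 8799 probe sets. Of these, 49 carried a single symbol and stood for 27 of the 4736 genes on the array, namely 6 core alpha subunits, 5 core beta subunits, 2 immunoproteasome subunits, 5 ATPases, 6 non-ATPase subunits and 3 activators. The other 5 probe sets carried several symbols and are described apart, under Psma3, Psmb6 and Psme3. No probe set was found for Psmb7, Psmb10, Psmc6 or the remaining non-ATPase subunits, nor for the inhibitor Psmf1 or the Psmg assembly chaperones, and these were not analysed here.

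Alpha subunits form the outer rings of the core particle and gate its entrance, and beta subunits form the inner rings, in which Psmb5, Psmb6 and Psmb7 carry the active sites. In cells exposed to interferon gamma, Psmb8, Psmb9 and Psmb10 take the places of those catalytic subunits, and this immunoproteasome supplies peptides for MHC class I. The regulatory particle recognises ubiquitin through non-ATPase subunits and unfolds and feeds the substrate through its ring of Psmc ATPases. Psme proteins form alternative caps. The intestinal epithelium renews constantly and meets antigens from food and microbes, so both forms of the particle are of interest there.

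RNA of the duodenal mucosa, which the labels call epithelial cells, came from 1 rat per condition and was hybridised to 1 Affymetrix array each. Both rats were male, of the Wistar strain and 15 weeks old, with no genetic change or drug named. The control was kept in a metabolic cage and the other rat in an immobilization cage, each for 2 weeks, and pooling of animals is not mentioned in the labels. With a single array per group no test between the groups was possible, and no difference below has a replicate check.

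Signals are given in array units after scaling, with a floor of 39.9 units, the median of all signals. A gene counted as measured where both arrays exceeded the floor, and it was represented by its brightest probe set. This held for 2524 genes, whose median log2 ratio of immobilized over control was -0.01. The only error that could be estimated was the SD of the log2 ratio between probe sets of the same gene, 0.31 over 696 genes. It describes disagreement within arrays and holds no spread between animals. Enterocyte markers were present on both arrays (9 of 11 listed had a probe set and all 9 were above the floor), and 8 of the 9 were lower in the immobilized rat, with a median log2 ratio of -0.29. All 11 exocrine pancreas markers were higher (median 0.87, summed signal 5955 against 11925), as were 5 of 5 measured markers of crypt and dividing cells (median 0.47). Signals of hybridisation spike-ins were lower for 7 of 9 probe sets, with a median log2 ratio of -0.21. What part these differences have in the values below was not tested, and in bulk tissue fewer cells of a type and less RNA per cell cannot be told apart.

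Proteasome signals were close to equal in the 2 rats for most subunits. The median log2 ratio of the 26 measured members was 0.04, against -0.01 over all measured genes, and 22 of the 26 lay within the technical SD of 0.31 (84.6%, against 62.0% of all genes). A ratio above 0 was found for 18 of the 26, against 49.4% of all genes. This split depended on scaling, as with the signals as deposited 15 of 26 were above 0 (57.7%, against 47.2% of all genes), and loess gave 19. At least 1.5-fold higher were 3 members, Psme4, Psmb2 and Psmd2, where 8.36% of all genes were. None of the 26 was at least 1.5-fold lower, where 4.87% of all genes were. Past 2-fold was 1 member, Psme4, on the higher side, where 2.02% of all genes lay, and 0 on the lower side, where 0.674% lay. The 27th gene, Psmd10, which encodes the assembly chaperone gankyrin, stayed under the floor in both rats (36.1 and 33.0 units).

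**Figure D1:**
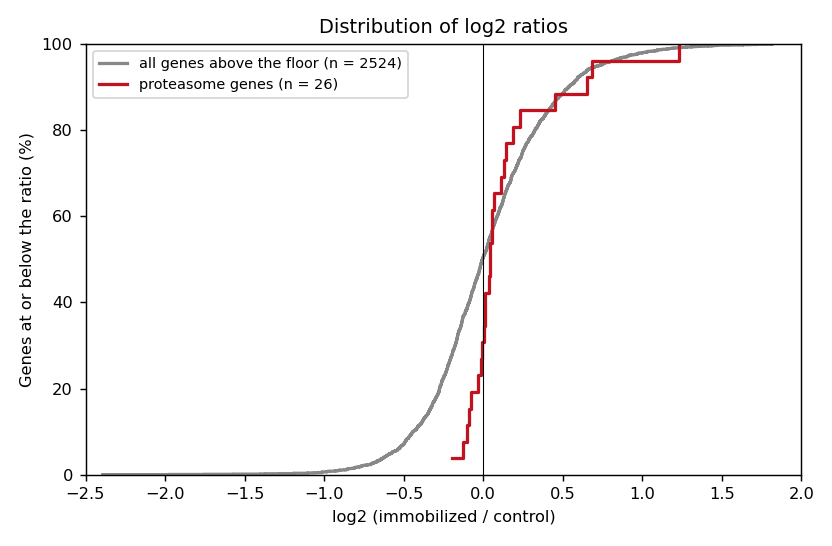
Cumulative distribution of log2 ratios (horizontal axis) as a percentage of genes (vertical axis), for all 2524 genes above the floor and for the 26 proteasome genes. The proteasome curve climbs steeply around 0 and has no tail to the left; its lowest value is -0.19 and its highest 1.23.

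A comparison was also made with genes of like brightness. The middle of the members spanned mean signals of 303 to 996 units, and 586 genes of the array lay in that range. Those genes had a median log2 ratio of 0.01 and an SD of 0.42, whereas the 12 members in the same range had 0.05 and 0.22. This range leaves out Psme4, Psmd2 and Psmb9, which were among the members with the highest ratios. Over all 26 measured members the SD was 0.31, against 0.41 over all measured genes. Of the 586 genes, 66.0% lay within the technical SD of 0, as did 11 of the 12 members.

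**Figure D2:**
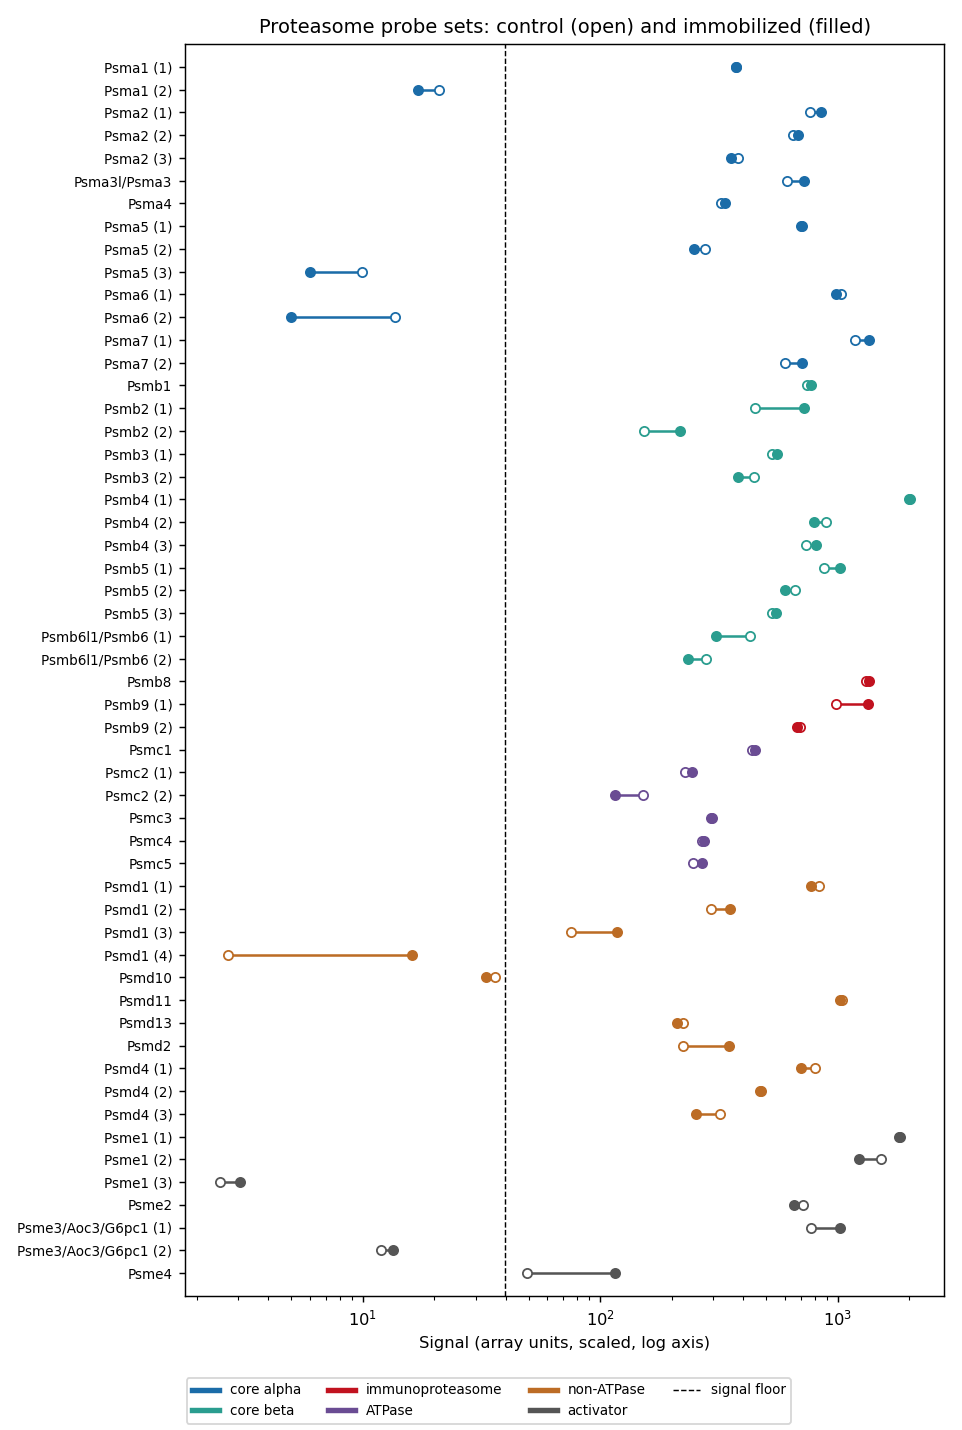
Signal of each of the 54 proteasome probe sets in the control rat (open circle) and the immobilized rat (filled circle) on a log axis, coloured by subunit class; numbers in brackets rank the probe sets of a gene by brightness, and the dashed line is the floor of 39.9 units. Most pairs of circles nearly coincide; Psmb2, Psmd2 and Psme4 are shifted to the right in the immobilized rat, and 7 probe sets lie left of the floor on both arrays.

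Signals of the core alpha subunits hardly differed between the rats, and none of the 6 genes reached 1.5-fold. Their median log2 ratio was 0.03, with a range from -0.08 to 0.19. Psma7 was the highest, at 1185 units in the control and 1350 in the immobilized rat, and its second probe set had 598 and 708, so that both probe sets were higher (log2 ratios of 0.19 and 0.24). Psma2 measured 769 and 848 units, a log2 ratio of 0.14, with 0.07 and -0.09 at its other probe sets. Psma4 had 325 and 334 units, Psma1 had 372 and 375, and Psma5 had 699 and 706 at its brightest probe set but 277 and 250 (log2 ratio -0.15) at another. Psma6 was the only gene of this class below 0, with 1038 and 983 units. For Psma1, Psma5 and Psma6 a further probe set lay under the floor on both arrays. The probe set annotated to both Psma3 and Psma3l, which RefSeq now lists as a synonym of Psma3, measured 614 and 721 units, a log2 ratio of 0.23.

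Among the core beta subunits with probe sets of a single symbol, Psmb2 stood out with higher signals at both of its probe sets. The others of that kind stayed within the technical SD, whereas the probe sets shared by Psmb6 and Psmb6l1 were lower. Psmb2 is a beta subunit without an active site. Its brightest probe set measured 448 units in the control and 719 in the immobilized rat, a 1.60-fold difference (log2 ratio 0.68), and its second measured 154 and 217 (0.50). These are 2.20 and 1.61 times the technical SD. Over the settings tried the log2 ratio of Psmb2 ranged from 0.50 to 0.69. Psmb5, which carries the chymotrypsin-like activity, had 876 and 1028 units (log2 ratio 0.23), with 0.06 and -0.14 at its other probe sets. Psmb1 (743 and 774 units) and Psmb3 (529 and 555) were near equal, although another Psmb3 probe set had 446 and 382 units (log2 ratio -0.22). Psmb4 measured 2017 and 2002 units, and its other probe sets had -0.17 and 0.13. Both probe sets annotated to Psmb6, the caspase-like subunit, and its copy Psmb6l1 were lower in the immobilized rat, with 426 and 309 units (log2 ratio -0.47) and 279 and 235 (-0.25). Signals of that gene and its copy cannot be told apart on this array.

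Immunoproteasome subunits were well above the floor in both rats, and their probe sets gave no common direction. Psmb8, which replaces Psmb5, measured 1321 and 1361 units, a log2 ratio of 0.04, which lay within the range of the Psmb5 probe sets (-0.14 to 0.23). Psmb9, which replaces Psmb6, measured 985 and 1349 units at its brightest probe set (log2 ratio 0.45), but 694 and 674 at the other (-0.04). The class median was 0.25 over these 2 genes and 0.00 when the Psmb9 probe set with the suffix _g_at was left out. In RefSeq's gene order, Psmb8 and Psmb9 lie in the MHC region beside the peptide transporter genes, in the order Tap2, Psmb8, Tap1 and Psmb9. The annotated starts of Psmb9 and Tap1 lie 457 bases apart on opposite strands. Tap1, a subunit of the transporter that carries proteasomal peptides into the endoplasmic reticulum, measured 280 and 380 units, with log2 ratios of 0.44 and 0.81 at its 2 probe sets. Tap2, the other subunit, had 532 and 592 units (0.15).

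**Figure D3:**
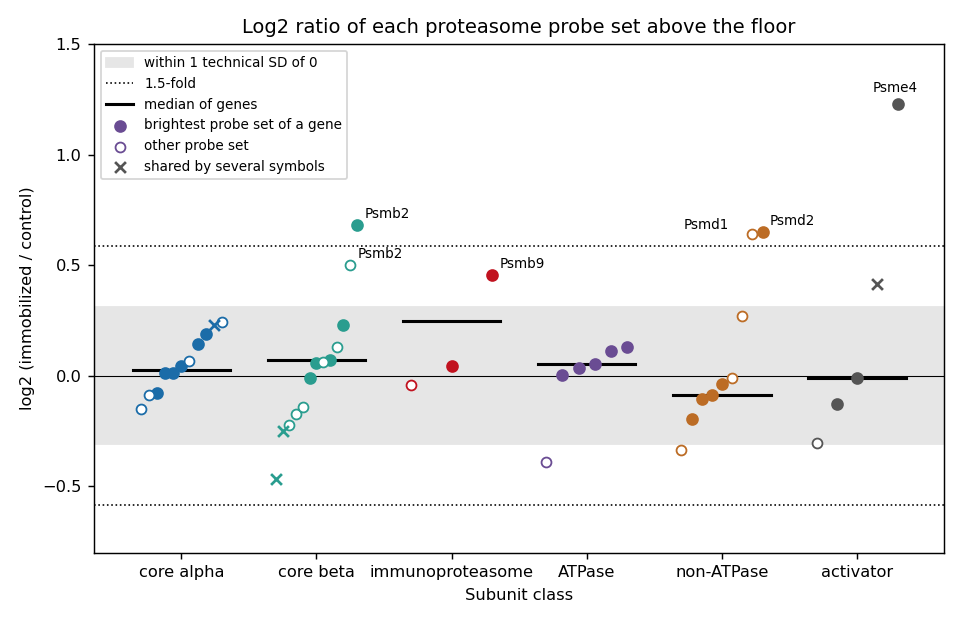
Log2 ratio of immobilized over control (vertical axis) for each of the 47 proteasome probe sets above the floor on both arrays, by subunit class; filled circles are the brightest probe set of a gene, open circles its others, crosses those with several symbols, and black bars the class medians over genes. The grey band spans 1 technical SD (0.31) and dotted lines mark 1.5-fold; Psme4, Psmd2, Psmb2 and a lesser Psmd1 probe set lie above the upper line and none lies below the lower line.

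The ATPases of the regulatory particle had the smallest spread over genes of the 6 classes. All 5 genes were slightly above 0, with log2 ratios between 0.01 and 0.13, a median of 0.06 and an SD over genes of 0.05. Psmc5 measured 246 and 269 units, Psmc2 had 227 and 245, Psmc1 had 434 and 451, Psmc4 had 269 and 275, and Psmc3 had 294 and 295. A second Psmc2 probe set went the other way, with 152 and 116 units (log2 ratio -0.39). With the signals as deposited the class median was 0.03, and Psmc3 was just below 0 (-0.02).

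Non-ATPase subunits were just below 0 for 4 of 5 measured genes, with Psmd2 the exception. Psmd2, a large scaffold subunit at the base of the regulatory particle that docks ubiquitin shuttles, measured 223 and 350 units in its only probe set, a 1.57-fold difference (log2 ratio 0.65). Psmd1, the other large scaffold subunit, disagreed between its probe sets. The brightest had 832 and 775 units (-0.10), whereas the others had 294 and 354 (0.27) and 75.4 and 118 (0.64), and one more was under the floor. This spread of 0.74 was the widest of the 12 members with several measured probe sets. Psmd4, which binds ubiquitin chains, was lower at all 3 probe sets, with 804 and 703 units (-0.19), 475 and 471 (-0.01) and 321 and 254 (-0.34). Psmd11 (1048 and 1023 units) and Psmd13 (225 and 211), both in the lid of the particle, were near equal. The class median was -0.09.

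The activators contained the largest ratio of the members and, beside it, values near or below 0. Psme4, a large nuclear cap, measured 49.2 units in the control and 115 in the immobilized rat, a 2.34-fold difference (log2 ratio 1.23, 3.96 times the technical SD). Its control signal lay close to the floor, and with 50 units added to both signals the log2 ratio was 0.74. A floor raised to the 70th percentile left it unmeasured. Psme1 and Psme2, the subunits of the cap induced by interferon gamma, were at or below 0. Psme1 measured 1833 and 1818 units (-0.01) and 1518 and 1230 at a second probe set (-0.30), while another was under the floor. Psme2 measured 716 and 655 units (-0.13). In RefSeq's order these genes are close neighbours, with Emc9 between them. Of the probe sets shared by Psme3, Aoc3 and G6pc1, one measured 771 and 1027 units (0.41) and the other was under the floor. Which of the 3 genes gave this signal cannot be told apart here.

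Agreement among probe sets limited what could be said of single subunits. Of the 12 members with more than 1 measured probe set, 4 had the same sign at each, namely Psma7 and Psmb2 above 0 and Psmd4 and Psme1 below. The SD between probe sets of the same member was 0.22 (29 probe sets). Over 10 settings of scaling, floor and probe set choice (9 for Psmd2 and Psme4, each unmeasured in 1), 15 of the 26 members kept their sign and 11 did not.

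A further pattern concerned paired probe sets that the array builds on the same source sequence, with the suffixes _at and _g_at. Among the 11 such pairs of proteasome members, the _g_at probe set had the higher log2 ratio in 9, with a median difference of 0.17. The exceptions were Psma7 and the pair shared by Psmb6 and Psmb6l1. The _at probe sets of these pairs had a median log2 ratio of -0.15 and the _g_at probe sets one of 0.07. Over the 424 other pairs on the array the _g_at probe set was higher in 48.8%, with a median difference of -0.01 and an SD of 0.32. The _g_at probe set was the brighter in 10 of the 11 pairs, so the rule of the brightest probe set mostly took it. With _g_at probe sets left out, 25 members were measured, 14 were above 0, the median was 0.01, and Psme4 alone remained past 1.5-fold. Psmb2 then had a log2 ratio of 0.50, and Psmd2 had no value.

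**Figure D4:**
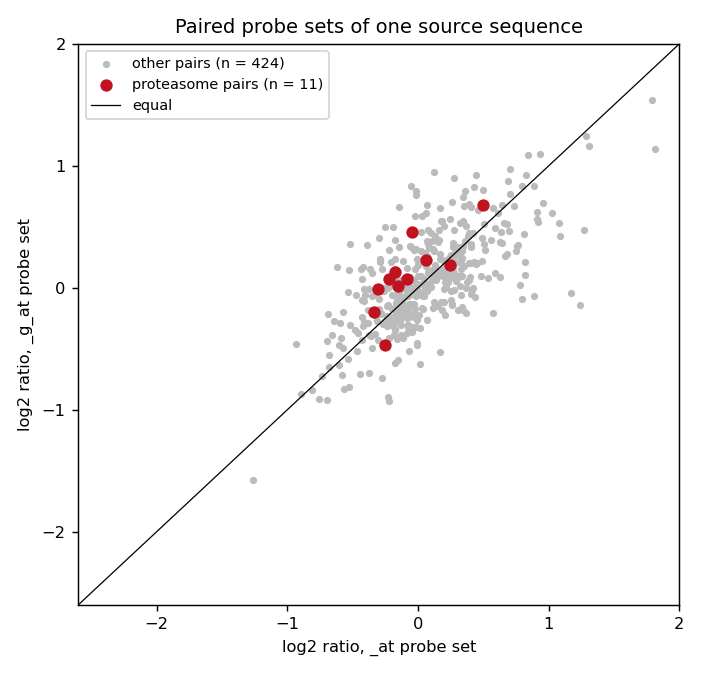
Log2 ratio of the _at probe set (horizontal axis) against that of the _g_at probe set (vertical axis) built on the same source sequence, for 11 proteasome pairs (red) and 424 other pairs (grey), with the line of equality. In 9 of the 11 proteasome pairs the point lies above the line. The other pair with the highest ratios (2.66 for _at and 2.35 for _g_at) lies outside the axes and is not shown.

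Promoter sequence is shown for the members whose signals differed most (Psmb2, Psme4 and Psmd2) and for members tied to interferon or to the catalytic exchange (Psmb5, Psmb8, Psmb9 and Psme2), so that the motifs known for these genes can be read beside the values. Proteasome genes as a group are known targets of Nfe2l1, which binds antioxidant response elements, and immunoproteasome genes of interferon-activated factors. Each stretch runs from 110 bases before to 10 after the start annotated by RefSeq in GRCr8. Capitals mark matches, on either strand, to the antioxidant response element core TGACNNNGC or to the interferon-stimulated response element core GAAANNGAA.
Psmb2, chr5:144254948-144255067, plus strand: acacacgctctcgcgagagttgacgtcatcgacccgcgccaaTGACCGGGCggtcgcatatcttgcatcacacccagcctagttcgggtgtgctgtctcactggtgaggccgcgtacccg
Psme4, chr14:108706533-108706652, plus strand: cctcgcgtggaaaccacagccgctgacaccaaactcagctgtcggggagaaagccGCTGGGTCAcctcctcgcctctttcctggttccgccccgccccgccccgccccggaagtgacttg
Psmd2, chr11:93763379-93763498, minus strand: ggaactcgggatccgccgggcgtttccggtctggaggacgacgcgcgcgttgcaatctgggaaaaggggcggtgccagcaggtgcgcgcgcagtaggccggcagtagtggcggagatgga
Psmb5, chr15:32047370-32047489, minus strand: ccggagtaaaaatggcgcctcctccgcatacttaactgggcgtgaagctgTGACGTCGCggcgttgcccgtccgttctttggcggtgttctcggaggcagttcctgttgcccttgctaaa
Psmb8, chr20:4657022-4657141, minus strand: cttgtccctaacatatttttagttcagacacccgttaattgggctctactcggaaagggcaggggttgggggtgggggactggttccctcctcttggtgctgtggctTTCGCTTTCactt
Psmb9, chr20:4668890-4669009, plus strand: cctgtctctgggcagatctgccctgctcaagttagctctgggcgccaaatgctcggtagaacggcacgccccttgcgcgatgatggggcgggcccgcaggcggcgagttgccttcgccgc
Psme2, chr15:33052742-33052861, minus strand: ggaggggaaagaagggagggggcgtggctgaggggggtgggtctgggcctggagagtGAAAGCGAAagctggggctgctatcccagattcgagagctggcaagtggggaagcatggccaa

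The antioxidant core was present in the 300-base promoter window of 6 of the 29 member genes with an entry (20.7%), against 12.1% of all 33469 promoters. These were Psmb2, Psme4, Psmb5, Psmb6, Psma3 and Psmd1. Psmb2 and Psme4, both past 1.5-fold, held it, and Psmd2 did not. Psmb5, which also held it, had log2 ratios of 0.23 at its brightest probe set and 0.06 and -0.14 at the others. Psmd1 was at -0.10 at its brightest and at 0.27 and 0.64 at others, and the probe set of Psma3 and Psma3l was at 0.23. The probe sets shared by Psmb6 and Psmb6l1 were lower in the immobilized rat. The interferon core was found in 6 of the 29, against 9.71% of all promoters, namely Psmb8, Psme2, Psmb2, Psma4, Psmb3 and Psmd11. In Psmb8 and Psme2 it lies within the stretch shown, and their log2 ratios were 0.04 and -0.13. A gamma-activated sequence, TTCNNNGAA, was found in Psmb8 alone, against 8.87% of all promoters. These matches describe letters in a window and not bound sites. No entry was given for Psma7.

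The rest of the ubiquitin system showed scattered differences in both directions. No measured gene of ubiquitin activation, conjugation, ligation or removal was past 2-fold. Over all genes, 2.02% were at least 2-fold higher and 0.674% at least 2-fold lower. Of 29 listed genes of ubiquitin activation and conjugation, 9 had a probe set and 6 were measured, 3 above 0 and 3 below, with a median of 0.05. The conjugating enzyme gene Ube2g1 was at -0.58 (-0.71 at another probe set), Ube2d2 at 0.46, Ube2a at 0.40 and Ube2b at -0.29, with 0.35 and 0.74 at the other Ube2b probe sets. Among ubiquitin ligases, which choose the substrate, 11 of 41 were measured, 5 above 0 and 6 below, with a median of -0.04. Ube3a had 71.8 and 47.2 units (1.52-fold lower), Traf2 a log2 ratio of -0.41, the muscle ligase gene Trim63 one of -0.26 and Huwe1 0.51 (0.37 at another probe set). Deubiquitinases, which remove ubiquitin, were measured for 2 of 22, Atxn3 (-0.61) and Stambp (0.29). None of the 4 listed ubiquitin genes had a probe set with a single symbol.

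The list of proteasome shuttles and partners had a median of 0.04 over 11 measured of 24 listed, 6 above 0. Besides proteins that bring substrates to the proteasome, it holds the transcription factor Nfe2l2 and Odc1 with its regulators. Nfe2l2, a transcription factor of oxidative defence, was 1.57-fold lower (556 and 354 units); a dimmer probe set gave -0.68 (log2). The shuttle gene Ubqln1 was at -0.47. Odc1, an enzyme degraded by the proteasome without ubiquitin, was at 0.30 and 0.56, and its regulator Azin1 at 0.32 and -0.13. The unfoldase Vcp (1173 and 1133 units), the core assembly factor Pomp (1320 and 1418) and the small lid subunit Sem1 (494 and 508) were near equal, and these 3 were named after their values were seen.

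Peptidases listed as downstream of the proteasome were lower for 6 of 9 measured genes, with a median of -0.11. Over all measured genes, 49.4% were above 0. The 6 include Anpep, also listed as an enterocyte marker, at -0.01, with -0.74 and -0.51 at other probe sets. The list median was -0.32 when probe sets were averaged or each counted, -0.22 without _g_at probe sets and -0.23 over the 4 genes left by a floor at the 70th percentile. Tpp2, a giant peptidase of the cytosol, had 272 and 134 units (2.03-fold lower), but its second probe set had a log2 ratio of 0.34. No other peptidase was past 2-fold, and 0.674% of all genes were at least 2-fold lower. Blmh (95 and 172 units) and Nrdc (69.1 and 124) were 1.81-fold and 1.79-fold higher, and the insulin-degrading enzyme gene Ide was at -0.55 and -0.43. Lysosomal and calpain genes, the other main route of protein breakdown, were lower for 9 of 13, with a median of -0.08. Cast, the calpain inhibitor, was 1.63-fold lower (-0.44 at another probe set), the cathepsin genes Ctsc and Ctsh were at -0.59 and -0.50, and Lamp2 was at 0.47, with -0.26 and 0.84 at other probe sets.

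**Figure D5:**
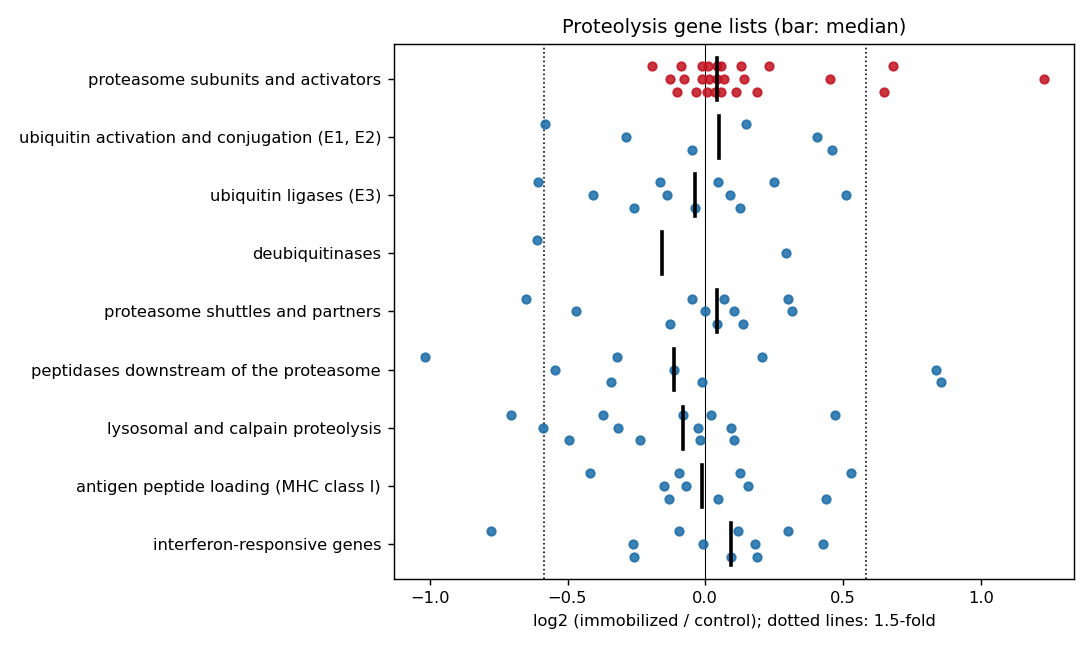
Log2 ratio of immobilized over control for the measured genes of the proteasome (red) and of 8 related lists (blue), with black bars for list medians and dotted lines at 1.5-fold; vertical offsets within a list only separate points. Most proteasome genes crowd near 0 (lower and upper quartile -0.01 and 0.14), with 3 points to the right of the upper line. Quartiles of the other lists lie farther apart, around medians between -0.16 and 0.09. By SD the proteasome genes (0.31) do not differ from MHC class I loading (0.28), proteasome partners (0.30) or ubiquitin ligases (0.31) by much.

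The listed genes of MHC class I loading and of the interferon response did not differ in a common direction. Of the MHC class I loading list, 10 of 16 were measured, 5 above 0 and 5 below, with a median of -0.01. None was past 1.5-fold at its brightest probe set. Over all genes, 8.36% were at least 1.5-fold higher and 4.87% at least 1.5-fold lower. Dimmer probe sets of Tap1 (0.81) and Canx (-0.78) were past that size. RT1-S3 was at 0.53 (-0.25 and 0.50 at other probe sets), and the loading chaperone Pdia3 at -0.42 (0.26 at another). Among interferon-responsive genes, 11 of 29 were measured, 6 above 0, with a median of 0.09. That median was below 0 when probe sets were averaged (-0.05), and at -0.0077 with each of them counted or with the floor at the 70th percentile. Ifngr1, a chain of the interferon gamma receptor, was 1.72-fold lower (671 and 391 units), Irf1 was at -0.26 (-0.01 at another probe set), Stat2 at 0.43 and Oas1a at 0.30. Mx1 and Mx2 each exceeded the floor on a single array, by 1.21-fold. Markers of antigen-presenting cells were higher for 5 of 7 measured genes (summed signal 11008 against 12262). The lists overlap, as Cd74, RT1-Ba, RT1-Bb, RT1-Da and RT1-Db1 were also counted among the interferon-responsive genes. Lyz2 had 465 and 953 units, and the other higher genes were between 0.09 and 0.19. Further probe sets of RT1-Ba were at -0.29 and -0.10 and those of Cd74 ranged from -0.13 to 0.06. Those of RT1-Bb and RT1-Db1 stayed above 0. Of 11 T and NK cell markers with a probe set, 4 were measured and 7 were below the floor on both arrays. Higher were Ccl5 (60.1 and 186 units), Cd3g (0.62) and Gzmb (0.08, with -0.45 at another probe set), and Cd4 was lower (-0.37). The summed signal of all 11 was 410 against 548, a difference that came mostly from Ccl5. The single B and plasma cell marker on the array was below the floor on both. Of 5 measured smooth muscle markers, 3 were higher, and Tagln and Myl9 were at -0.02, with 0.79 at another Myl9 probe set. The summed signal of all 8 with a probe set was 457 against 753. Acta2 gave 90.3 and 289 units of these sums, and its other probe set was at -0.13 (log2). None of these markers had a signal of 0, and their part in the immunoproteasome values was not tested.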

How the data were processed

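Per the labels, the deposited values are signal intensity on a linear scale, 1 value per probe set and array. The series' design credits Affymetrix software, version 4.0, with filtering and normalizing, whereas the submitters' processing notes name MAS5. Which algorithm made the signals is therefore not settled.

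Each array had 1 value for all 8799 probe sets, and 7006 probe sets carried a single symbol, updated through the gene ID. The immobilized array was multiplied by 1.016 so that probe sets above the floor had a median log2 ratio of 0. The floor was the 50th percentile of all signals. Genes were counted at 1.5-fold and 2-fold. No test was possible with 1 array per group, and the number of arrays limits the precision.

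All members were described. From each other list, up to 4 genes farthest from 0 were named, and any past 2-fold. Anpep was also named among the peptidases, because it is on the enterocyte list too. The members and lists were chosen with earlier results of these data known. Alternatives were 4 scalings, 3 choices of floor and 2 treatments of probe sets, with 2 more added after seeing the data. Loess used a span of 0.3, and the choice without a floor used log2 of the signal plus 50. The steps were tested on simulated data. Sequences came from RefSeq (GRCr8), which matched 29 of 30 members. The software was Python 3.11.15 with statsmodels 0.14.6, numpy 2.4.6, matplotlib 3.10.9 and pandas 2.3.3.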

Additional observations from a re-analysis of the deposited data

How the results depend on the processing

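The median log2 ratio of the proteasome genes ranged from 0.01 to 0.05 over 12 settings. The share above 0 was smallest at 14 of 25 (without _g_at probe sets) and largest at 19 of 26 (loess, 73.1%). It was 20 of 29 with probe sets of several symbols and 25 of 43 with every probe set counted. At least 1.5-fold higher were 3 members in the main setting, 4 with every probe set counted, 2 with the floor at the 70th percentile or with 50 units added, and 1 without _g_at probe sets. The count at least 1.5-fold lower was 0 in every setting tried. The immunoproteasome median moved from 0.25 to 0.00038 without _g_at probe sets, and the activator median from -0.01 to 0.20 with the Psme3 probe set included; the first follows from the Psmb9 probe set left out, the second from the member added. Leaving out a replicate was not possible with 1 array per group. No paired analysis was possible because each group had 1 array and no test was made. List medians that took both signs over the settings were those of MHC class I loading (-0.08 to 0.06), proteasome partners (-0.05 to 0.05), ubiquitin activation and conjugation (-0.05 to 0.15), ubiquitin ligases (-0.09 to 0.004) and interferon-responsive genes (-0.05 to 0.11). The core beta median ranged from -0.01 to 0.08, and Psmd1 was at 0.27 when its probe sets were averaged. Signal over background limits Psme4, whose control signal lay close to the floor, and Psmd10, which was under the floor on both arrays.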
